A study of Arabidopsis thaliana with 25 samples.

Results

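A set of 159 Arabidopsis genes gave less signal in roots treated with dexamethasone (DEX) and cycloheximide (CHX) than in roots treated with dimethyl sulfoxide (DMSO) and CHX, in a PEAR1-GR line and a PEAR2-GR line alike. A gene was taken when the mean log2 intensity in DEX+CHX was at least 0.5 under that in DMSO+CHX in both lines, and when the highest DEX+CHX array lay below the lowest DMSO+CHX array in each line. Among the 16746 array rows that name 1 gene, 164 (0.979%) met these criteria. BGLU27, BGLU31, BGLU32, UGT72E2 and CCOAMT, which also met them, were left out. The same criteria turned round, for higher signal with DEX+CHX, were met by 192 rows (1.15%). All of these values come from the arrays that chose the genes, so they are a description and were not tested.

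The roots came from 4-day-old Arabidopsis thaliana Col-0 seedlings, and the source names call the harvested material root tips. The introduced construct was pRPS5A::PEAR1-GR in one line and pRPS5A::PEAR2-GR in the other, and plants free of a GR fusion were not among the samples. Each line was given DMSO alone for 1 h, DEX for 2 h, DEX+CHX for 2 h or DMSO+CHX for 2 h, with 3 arrays in each group and 4 in the PEAR1 DEX+CHX group, 25 in all. The 6 DMSO+CHX arrays formed arraying batch A461 and all others batch A451. Batch and the effect of DEX under CHX therefore cannot be told apart, and treatment time and the effect of DEX without CHX cannot be told apart either. Whether the arrays of a group stand for separate cultures is not stated in the labels, so a p-value covers only the spread among these samples, which may be technical.

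PEAR1 and PEAR2 are DOF-type transcription factors of the early phloem, whose products move into neighbouring cells and promote radial growth of the root vascular tissue. A factor joined to the ligand-binding domain of the glucocorticoid receptor (GR) is held in the cytoplasm until DEX lets it enter the nucleus. RPS5A is a ribosomal protein gene whose promoter is active in dividing cells. CHX stops translation, so that changes in RNA made with it present do not need newly made protein. It is also known to raise the level of many short-lived transcripts that translation normally helps to remove, among them many quickly induced defence, stress and signalling genes.

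A row of the PEAR2 gene stayed at 10.73 or more on each array of the PEAR2 line and at 8.90 or less on each array of the PEAR1 line. PEAR1 had no named row. Of 31 fixed marker genes of root and shoot cell types, 7 had a row that named them. EXP7, an expansin gene of root hair cells, had group means between 9.43 and 9.88. Within DEX+CHX against DMSO+CHX, the phloem genes OPS, CLE25 and SWEET11 were higher with DEX+CHX, by 0.74, 0.31 and 0.31 (PEAR1 line) and by 0.26, 1.02 and 0.75 (PEAR2 line). The green-tissue gene RCA differed by 0.33 and 0.19, the root hair genes EXP7 and EXP18 by -0.01 to 0.18, and the lateral root gene LBD16 by 0.62 and 0.58. None of the 7 was lower by 0.5, and the part of cell makeup in the result was not tested. In root material of mixed cell types, fewer cells of a type and less RNA per cell cannot be told apart.

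Of the 159 genes, 157 matched the RefSeq gene table, and CLE21 and AT1G03660 kept the name of the platform annotation. The matched genes comprised 156 protein-coding genes and 1 transcribed pseudogene. Chromosomes 1 to 5 held 42, 26, 31, 25 and 32 of them, between 0.839% and 1.01% of the single-gene rows of each chromosome, and psbM lies in the plastid genome. A gene symbol was given for 19 members (11.9%, against 10.9% of single-gene rows). The other 140 are known here by locus tag alone and are given no role. Among unnamed rows, 172 of 20904 (0.823%) met the criteria, and among rows that name several genes 3 of 758 (0.396%) did.

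The difference between DEX+CHX and DMSO+CHX ran from -1.79 to -0.50 with a median of -0.77 (PEAR1 line) and from -3.05 to -0.50 with a median of -0.98 (PEAR2 line). Over all single-gene rows the medians were -0.01 and -0.03. A difference of -1 or beyond was found for 45 members in the PEAR1 line, for 78 in the PEAR2 line and for 41 in both. For 125 members the PEAR2 line had the larger difference, and for 34 the PEAR1 line. Just inside the threshold lay AT3G55690 with -0.50 and -0.61, AT4G30150 with -0.54 and -0.50 and XTH33 with -0.50 and -1.02 in the PEAR1 and PEAR2 lines. Just outside lay AT4G36550 with -0.50 and -0.71, AT5G57500 with -0.50 and -0.83 and AT4G21880 with -0.49 and -0.53. A further 82 rows passed the fold in both lines but had overlapping arrays. In the PEAR1 DEX+CHX group, replicate 2 was the highest of the 4 arrays for 94 members and replicate 4 the lowest for 74. Without replicate 2 the rule found 226 genes, 153 of them among the 159.

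**Figure D1:**
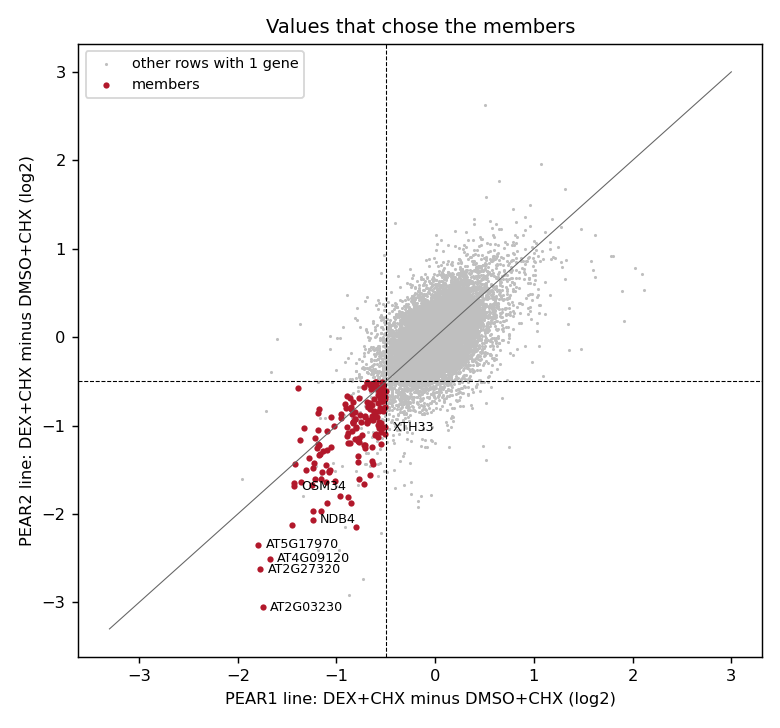
Mean difference in log2 intensity between DEX+CHX and DMSO+CHX in the PEAR1 line (horizontal axis) and in the PEAR2 line (vertical axis) for 16746 single-gene rows. Red points are the 159 members, grey points all other rows, dashed lines the threshold of -0.5, and the solid line marks equal differences; most members lie under it, with a larger difference in the PEAR2 line.

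The largest mean difference belonged to AT2G03230. Its 3 DMSO+CHX arrays read 6.04, 5.71 and 5.49 for the PEAR1 line and 6.98, 7.12 and 7.27 for the PEAR2 line. With DEX+CHX they read 3.75, 5.05, 3.69 and 3.54 for the PEAR1 line and 3.76, 4.44 and 4.00 for the PEAR2 line, a 3.35-fold and an 8.29-fold lower mean. In DMSO and DEX alone the 12 arrays lay between 1.79 and 2.63, near the bottom of the scale, so that every DEX+CHX array stood above every array without CHX. AT2G27320, AT4G09120 and AT5G17970 followed, with differences of -1.77, -1.68 and -1.79 (PEAR1 line) and -2.63, -2.50 and -2.35 (PEAR2 line). The DEX+CHX means of AT4G09120 were 2.28 and 2.42, near the bottom of the scale, so its differences may be lower bounds.

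NDB4 (AT2G20800) encodes an external NAD(P)H dehydrogenase of mitochondria and had the largest mean difference among members with a symbol. DMSO+CHX arrays read 7.74, 7.96 and 8.12 for the PEAR1 line and 8.83, 8.85 and 8.97 for the PEAR2 line. The DEX+CHX arrays read 6.09, 7.48, 6.64 and 6.58, and 6.45, 6.63 and 7.36. Without CHX, NDB4 stayed between 1.74 and 2.85 on all 12 arrays, far under both CHX groups.

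Most members had low values without CHX and high values with it. Their median level was 3.68 in PEAR1 DMSO and 3.50 in PEAR2 DMSO, 5.38 and 5.47 in DEX+CHX, and 6.19 and 6.49 in DMSO+CHX, while the median over all rows lay between 4.40 and 4.68 in the 8 groups. On all 3 DMSO arrays and all DEX+CHX arrays of both lines, 98 members (61.6%) had DEX+CHX above DMSO without overlap, against 17.4% of single-gene rows. For DMSO+CHX above DMSO the count was 129 (81.1%, against 18.9%). Both counts share CHX arrays with the rule, which required high DMSO+CHX values, so their distance from the share of all rows is partly set by the choice of members. Through that choice both counts also depend on the batch difference, although DEX+CHX and DMSO themselves lie in the same arraying batch. With the 2 h DEX arrays in place of the 1 h DMSO arrays, 101 members had DEX+CHX above without overlap, against 17.2% of rows. At least 4-fold higher means in DEX+CHX than in DMSO in both lines were found for 54 members, against 4.6% of single-gene rows.

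**Figure D2:**
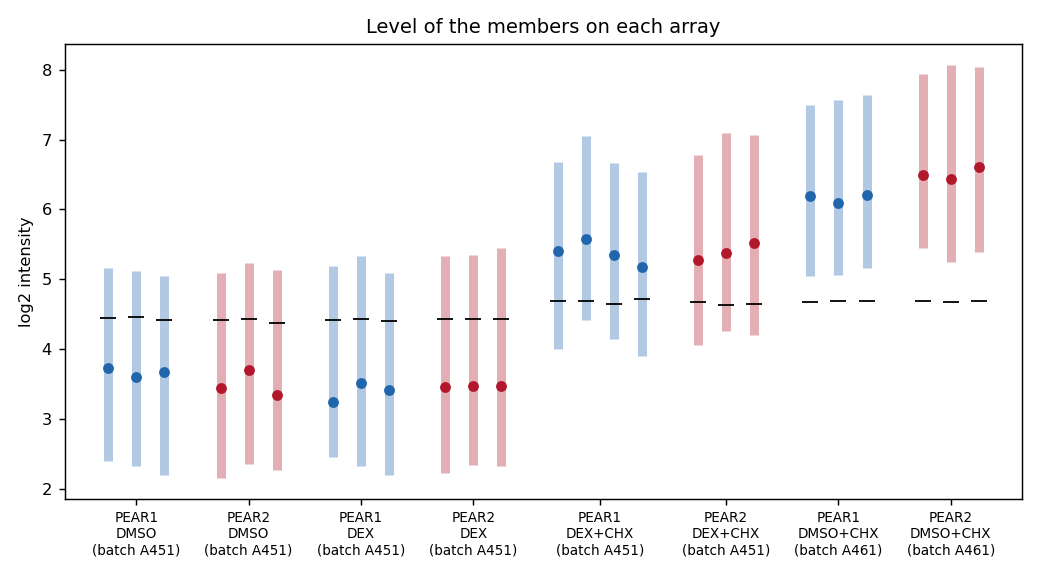
Log2 intensity of the 159 members on each of the 25 arrays, grouped by line and treatment, with the arraying batch under each group. Points are medians, thick bars run from the lower to the upper quartile, and black dashes are the medians of all single-gene rows; the members lie under the dashes without CHX and over them with CHX, highest in DMSO+CHX.

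The members were divided by whether the DMSO, DEX+CHX and DMSO+CHX arrays overlapped in both lines, a division into classes made after the values were seen. A stepwise order, with DMSO lowest, DEX+CHX between and DMSO+CHX highest, held for 98 members. In 31 members DMSO+CHX stood above DMSO and DEX+CHX overlapped it in at least 1 line. In 11 members DEX+CHX lay below DMSO and DMSO+CHX overlapped it in at least 1 line, and in 4 members both CHX groups lay below DMSO, so that DEX+CHX was below DMSO for 15 (9.43%, against 21.2% of rows). The remaining 15 members fell into none of these. The median DMSO level over both lines was 2.97 in the stepwise class, 6.73 in the class of 11 and 8.09 in the class of 4.

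A mean at or under 2.3 was taken as the bottom of the scale, so a difference from a DMSO mean that low is a lower bound. The 6 members with the largest measured differences between DEX+CHX and DMSO had DMSO means at or near that level, from 1.57 to 2.56, and their order is not set. AT4G12735 had DMSO means of 2.51 (PEAR1 line) and 2.14 (PEAR2 line), DEX+CHX means of 10.01 and 10.13 and DMSO+CHX means of 10.90 and 11.25. BHLH92 (AT5G43650), a bHLH-type transcription factor gene, had DMSO arrays at 2.77, 2.23 and 2.26 and at 1.77, 2.52 and 1.64. Its DEX+CHX arrays read 9.49, 9.52, 9.34 and 9.20 (PEAR1 line) and 8.61, 9.30 and 9.28 (PEAR2 line). Its DMSO+CHX arrays read 10.28, 9.70 and 9.93, and 9.75, 10.26 and 10.15. Both CHX groups were far above DMSO, and the difference that chose the gene, -0.58 and -0.99, was small beside that gap. AT4G26120, AT4G11000, AT5G24640 and AT1G61470 were the other 4, with DEX+CHX means of 8.01 to 9.24.

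**Figure D3:**
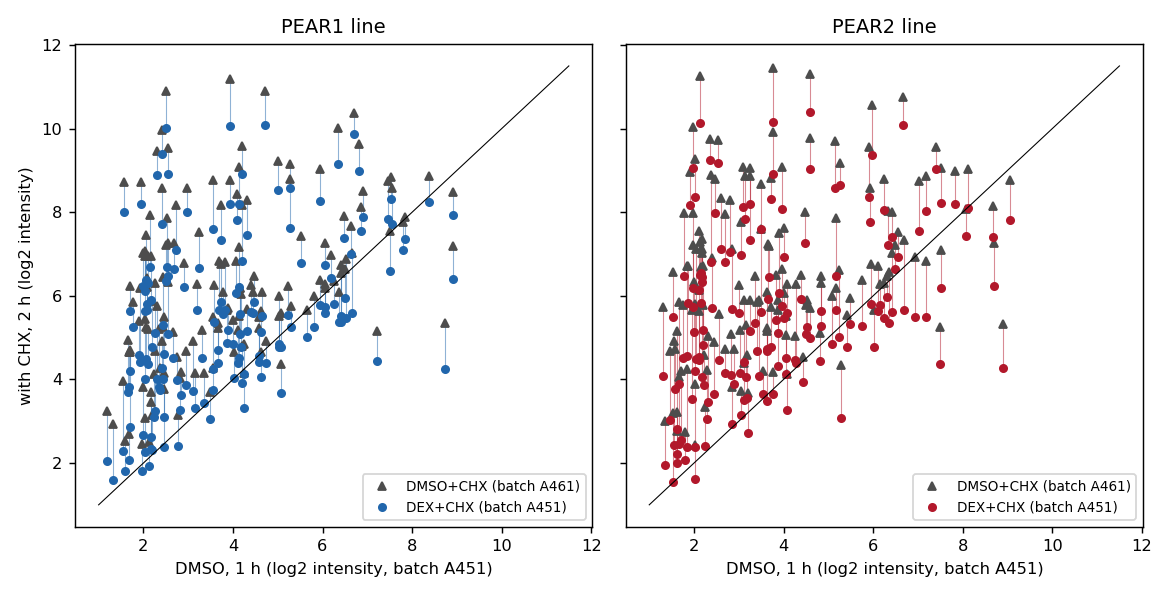
Level of each member in DMSO at 1 h (horizontal axis) against its level with CHX at 2 h (vertical axis), in log2 intensity, for the PEAR1 line (left) and the PEAR2 line (right). Circles are DEX+CHX means, triangles DMSO+CHX means, each pair joined by a line, and the diagonal marks equality; most members lie over the diagonal, and members high in DMSO lie on both sides of it.

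The members with a symbol split in the same way. The stepwise class held 12 of the 19, and 3, 2 and 2 fell into the classes with DEX+CHX overlapping DMSO, with DEX+CHX below DMSO, and with no set order. Defence-related genes were among them. ChiC (AT4G19810) encodes a class V chitinase, NHL25 (AT5G36970) a member of the NDR1/HIN1-like family, OSM34 (AT4G11650) an osmotin-like protein of pathogenesis-related family 5, and LOV1 (AT1G10920) a resistance-type protein that confers sensitivity to the fungal toxin victorin.

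ChiC was abundant in DMSO and higher in both CHX groups. Its DMSO arrays read 6.67, 6.37 and 6.0 and 5.74, 6.16 and 6.01. DEX+CHX gave 9.31, 9.35, 9.27 and 8.65 for the PEAR1 line and 9.49, 9.36 and 9.25 for the PEAR2 line, against 9.91, 10.15 and 10.01 and 10.59, 10.45 and 10.65 with DMSO+CHX. NHL25 arrays lay between 1.56 and 2.38 in DMSO, between 5.86 and 6.48 in DEX+CHX and between 6.99 and 7.67 in DMSO+CHX. LOV1 read at most 3.07 on any array, with DMSO+CHX means of 2.69 and 2.76 and all DMSO and DEX+CHX means under 2.3, so its differences are lower bounds too.

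OSM34 was one of the few with an unset order. DMSO arrays read 6.96, 6.61 and 6.40 for the PEAR1 line and 6.36, 7.72 and 6.0 for the PEAR2 line. DEX+CHX gave 6.07, 5.79, 5.55 and 4.94, and 6.32, 5.63 and 5.01. With DMSO+CHX the values were 7.33, 7.21 and 6.52, and 7.34, 7.33 and 7.34, so that DEX+CHX lay 2.69-fold and 3.21-fold lower than DMSO+CHX, and the DMSO+CHX means were 0.36 and 0.65 above DMSO.

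Signalling peptides and regulators formed a second group. CLE21, a CLE-type signalling peptide gene, had DMSO+CHX arrays of 4.97, 5.49 and 5.29 for the PEAR1 line and 5.82, 5.58 and 6.03 for the PEAR2 line, against 4.12 to 4.87 and 4.04 to 4.45 in DEX+CHX and 1.75 to 2.29 in DMSO. SCRL25 and LCR59, which encode small cysteine-rich secreted peptides, had differences of -1.24 and -0.72 for the PEAR1 line and -1.67 and -1.22 for the PEAR2 line. The DEX+CHX means of LCR59 were 1.81 and 2.01, at the bottom of the scale, so its differences are lower bounds. CLE21, SCRL25 and LCR59 are among 119 rows found by symbol or synonym as small secreted peptide genes, whose median differences were -0.01 and -0.08. No other of these rows passed the fold in both lines. In DMSO of both lines 82 of the 119 had a mean at or under 2.3; 36 members (22.6%) did so, against 28.1% of single-gene rows. SLY2 (AT5G48170) encodes an F-box protein of gibberellin signalling. Its means were 1.02 and 1.27 higher in DEX+CHX than in DMSO and 1.80 and 2.45 higher in DMSO+CHX. JRG21 (AT3G55970), a jasmonate-regulated oxygenase gene, read at most 3.51 on any array.

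Metabolic and other roles made up the rest. SAL2 (AT5G64000), a relative of the phosphatase gene SAL1, had DEX+CHX means of 6.20 and 6.54 and DMSO means of 2.91 and 2.15, the second of them at the bottom of the scale. SIS (AT5G02020), a salt-induced serine-rich protein gene, had a larger difference in the PEAR1 line, -1.18, than in the PEAR2 line, -0.81. SWI1 (AT5G51330) and ATSPO11-1 (AT3G13170) act in meiosis, where SWI1 organises chromosomes and ATSPO11-1 makes the DNA breaks that start recombination. SWI1 had DMSO means of 2.11 and 2.21, at the bottom of the scale, and DEX+CHX means of 4.37 and 4.81, and ATSPO11-1 stayed between 2.67 and 4.00 on every array. CTF2B (AT2G29720) was 3.92 and 4.14 above DMSO with DEX+CHX. JAL22 (AT2G39310), a jacalin-related lectin gene, and XTH33 (AT1G10550), a xyloglucan endotransglucosylase/hydrolase of the cell wall, are described with the DEX arrays.

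psbM, which encodes a small subunit of photosystem II in the plastid, was the only plastid-encoded row of 63 past the fold in both lines. It lay between 7.26 and 7.89 in DMSO and between 6.80 and 7.68 in DMSO+CHX, against 6.39 to 6.70 and 5.98 to 6.43 in DEX+CHX in the PEAR1 and PEAR2 lines. Of all 63 plastid rows, 54 were lower in DEX+CHX in the PEAR1 line, with a median of -0.17, and 37 in the PEAR2 line, with a median of -0.05.

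**Figure D4:**
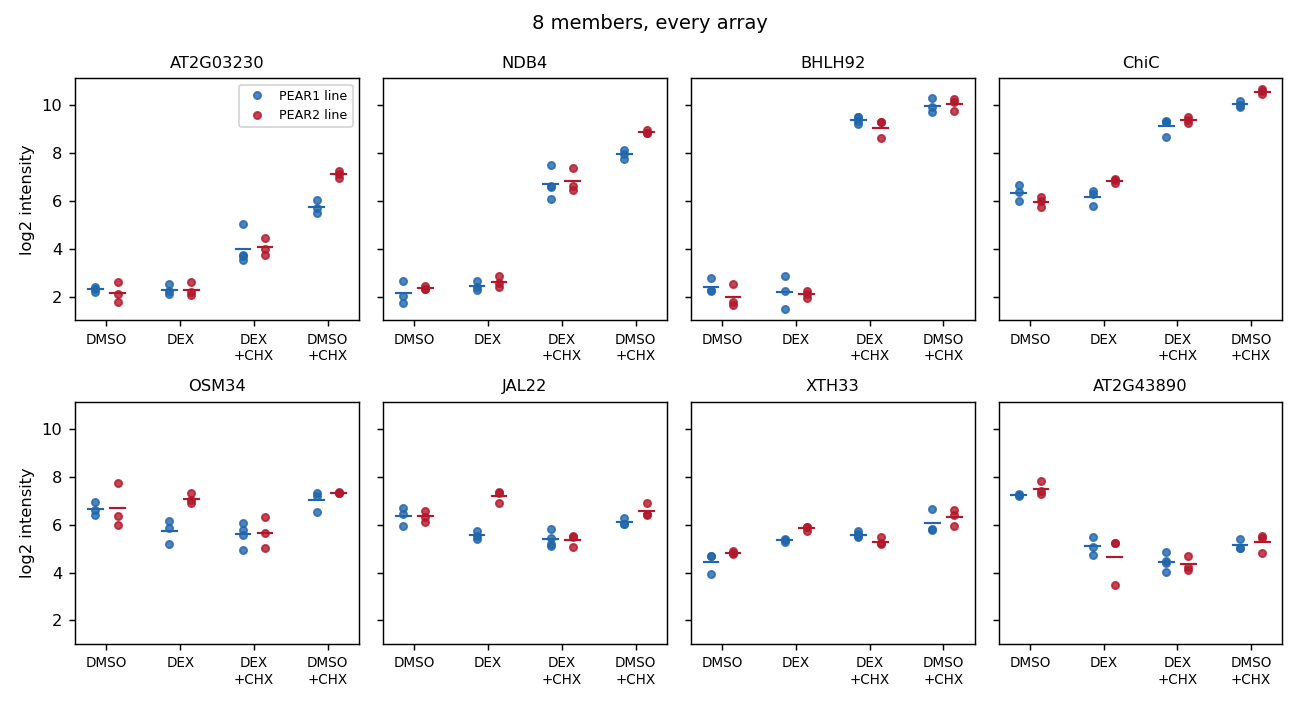
Log2 intensity of 8 members on every array, by treatment, with the PEAR1 line in blue and the PEAR2 line in red; points are arrays and short lines are group means. AT2G03230, NDB4, BHLH92 and ChiC are highest in DMSO+CHX, with DEX+CHX between it and the arrays without CHX, whereas AT2G43890 is highest in DMSO and JAL22 differs between the lines with DEX alone.

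Another 4 members ran the other way, with both CHX groups below DMSO (2.52%), against 22.1% of single-gene rows with DMSO+CHX below DMSO. AT2G41810 read 8.85, 8.62 and 8.76 in PEAR1 DMSO and 8.84, 9.05 and 8.85 in PEAR2 DMSO. DMSO+CHX arrays read 5.52, 5.19 and 5.37 and 5.17, 5.51 and 5.29, and DEX+CHX arrays 4.68, 4.55, 3.93 and 3.88 and 4.30, 4.35 and 4.14. AT3G20362, AT5G18840 and AT2G43890 were the others, with DEX+CHX minus DMSO differences of -3.14 to -1.40 (log2).

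Some pairs of members lie close together in the genome. AT1G14640 and AT1G14642, AT1G17147 and AT1G17150, and AT5G42830 and AT5G42840 are neighbours, and AT3G55677 and AT3G55690 are 2 places apart. Across the 25 arrays the log2 values of the first pair correlated with r = 0.748 and those of the last neighbouring pair, AT5G42830 and AT5G42840, with r = -0.075. These arrays share their treatments, and the correlations are descriptions only.

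The lines were also compared within each treatment, where both lie in the same batch. In DMSO+CHX, the PEAR2 minus PEAR1 difference had a median of 0.27 over the members, against 0.01 over all rows, and 132 of 159 members were higher in the PEAR2 line. All 3 PEAR2 arrays stood above all 3 PEAR1 arrays for 74 members (46.5%), against 7.96% of single-gene rows, and below them for 4, against 7.33%. In DEX+CHX the median was 0.07, with 9 members above (5.66%, against 3.38%) and 3 below (against 4.72%). In DMSO the median was -0.04, with 12 members above (7.55%, against 6.47%) and 13 below (8.18%, against 7.13%), and in DEX it was 0.09, with 23 above (14.5%, against 7.4%) and 8 below (5.03%, against 6.41%). The CHX contrasts use arrays of the rule, which required high DMSO+CHX values. Their distance from the share of all rows may be partly set by the choice of members, so they were not tested. Among the 95 members whose level in every group exceeded that of the lowest 33.3% of rows, 35 (36.8%) had PEAR2 arrays above PEAR1 arrays in DMSO+CHX, against 7.8% of single-gene rows passing the same filter. This share has the same limit and is a description only.

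The arrays without CHX played no part in choosing the members, and DEX against DMSO was tested there by a limma fit to all 25 arrays, with p-values adjusted by Benjamini-Hochberg over 17504 rows that name a gene. Each row's estimate of the spread also drew on the CHX arrays. The members varied more between arrays of a group than other rows: their median SD was 0.23 to 0.26 in the 4 groups without CHX, against 0.17 to 0.19 over all rows. In the PEAR1 line 8 members rose (5.03%, against 1.27% of rows) and 7 fell (4.4%, against 1.81%). In the PEAR2 line 13 rose (8.18%, against 2.15%) and 11 fell (6.92%, against 1.95%). Called in at least 1 line were 29 members, and 130 were called in neither. The median change was -0.08 for the PEAR1 line and 0.04 for the PEAR2 line, against 0.00 and 0.02 over all rows, with 94 and 73 of the 159 members below 0. Fitted on the 6 arrays of a comparison alone, 3 members were called in the PEAR1 line, all lower, and 12 in the PEAR2 line, 7 higher and 5 lower. That fit also called fewer rows over all genes. Those totals are given with the dependence on the processing, without a split by direction, so the drop is not read as particular to the members.

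Both lines called 10 members, of the 15 called in the PEAR1 line and the 24 in the PEAR2 line. Of these, 6 rose in both, namely AT1G07690, AT1G27020, AT2G25735, AT3G27950, AT5G18840 and XTH33, 3 fell in both, namely AT1G29710, AT1G76620 and AT2G43890, and JAL22 went opposite ways. The lines share no arrays, but 1 spread estimate a row served both. Shares over all rows are given for each line only, not for calls in both lines, in either line or in 1 line alone. Those counts are therefore not read as particular to the members.

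AT2G43890 read 7.27, 7.23 and 7.19 in PEAR1 DMSO and 4.74, 5.47 and 5.06 with DEX. In the PEAR2 line it went from 7.42, 7.81 and 7.27 to 5.22, 5.24 and 3.47. The groups did not overlap in either line, and the log2 change was -2.14 ± 0.33 (SE, limma adjusted p = 0.000516) and -2.86 ± 0.33 (limma adjusted p = 1.28e-05). With CHX the gene was low under DMSO too, at 5.01, 5.40 and 5.04 and at 5.45, 5.52 and 4.81.

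AT1G76620 went from 4.11, 5.13 and 4.52 to 2.50, 2.83 and 2.83 in the PEAR1 line. In the PEAR2 line it went from 4.30, 3.78 and 4.08 to 2.29, 2.59 and 2.66. All DEX arrays lay below all DMSO arrays, with log2 changes of -1.86 ± 0.22 (SE, limma adjusted p = 2.33e-05) and -1.54 ± 0.22 (limma adjusted p = 0.000172). DEX+CHX arrays of 4.40, 4.42, 4.38 and 5.02 and of 3.76, 4.30 and 4.35 lay close to DMSO instead. Both AT1G76620 and AT2G43890 kept their calls with any 1 array left out and under each other setting tried.

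AT1G27020 made the largest rise of the PEAR2 line. DMSO arrays of 4.48, 4.07 and 4.04 in the PEAR1 line compared with 5.59, 4.92 and 5.0 in DEX, and DMSO arrays of 3.57, 4.30 and 4.04 in the PEAR2 line with 5.52, 6.09 and 6.25. No DEX array overlapped a DMSO array. The log2 change was 0.97 ± 0.23 (SE, limma adjusted p = 0.0213) in the PEAR1 line and 1.99 ± 0.23 (limma adjusted p = 1.5e-05) in the PEAR2 line. Without PEAR1 DEX replicate 1 the PEAR1 call was lost (limma adjusted p = 0.141), as it was without 2 other arrays. It was also lost in the fit on the arrays of the comparison alone (limma adjusted p = 0.117), while the PEAR2 call held throughout. With DMSO+CHX the gene stood 3.97 and 5.13 above DMSO.

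XTH33 rose from 4.71, 4.69 and 3.92 to 5.26, 5.36 and 5.41 in the PEAR1 line. In the PEAR2 line it rose from 4.81, 4.89 and 4.79 to 5.90, 5.91 and 5.75. The changes were 0.91 ± 0.21 (SE, limma adjusted p = 0.0165) and 1.02 ± 0.21 (limma adjusted p = 0.00547), and the PEAR1 call was lost without 3 of the 6 arrays, with a highest limma adjusted p of 0.115 without DMSO replicate 3. AT1G07690 rose by 0.91 ± 0.21 and 1.27 ± 0.21, and AT5G18840 by 0.84 ± 0.20 and 0.92 ± 0.20. Both held their PEAR2 calls in every setting and lost their PEAR1 calls without 3 of the 6 arrays, with a limma adjusted p of up to 0.126 and 0.119. The fit on the arrays of a comparison alone also lost the PEAR1 calls of AT1G07690, AT5G18840 and XTH33, with limma adjusted p of 0.172, 0.0776 and 0.148. AT2G25735 held its calls in both lines with each array left out, with changes of 1.11 ± 0.19 and 0.95 ± 0.19. It lost them in the fit on the arrays of a comparison alone, where the limma adjusted p was 0.0656 and 0.0998. AT3G27950 changed by 1.11 ± 0.29 and 1.1 ± 0.29 and AT1G29710 by -0.64 ± 0.16 and -0.61 ± 0.16, and each call of these genes was lost without at least 4 of the 6 arrays, with a limma adjusted p of up to 0.205.

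**Figure D5:**
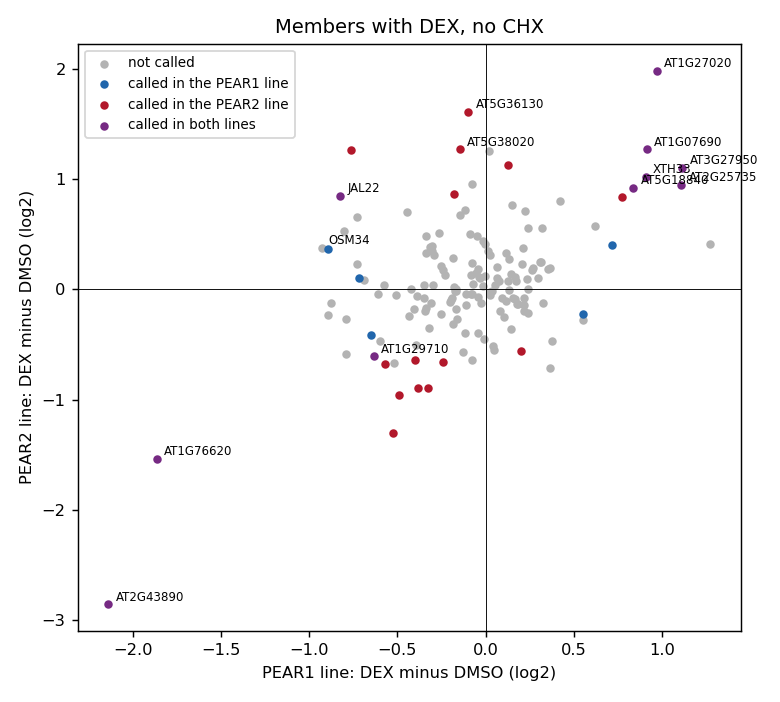
Change in log2 intensity from DMSO (1 h) to DEX (2 h) in the PEAR1 line (horizontal axis) and the PEAR2 line (vertical axis) for the 159 members, with colour showing in which line the change was called at an adjusted p under 0.05. Most points lie near 0, AT2G43890 and AT1G76620 fall in both lines, and JAL22 stands in the quadrant of opposite changes.

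A call in 1 line alone was made for 5 members for the PEAR1 line and 14 for the PEAR2 line, and only the test of the line difference, given after these values, compares the lines. AT5G36130 read 7.0, 6.88 and 7.21 in PEAR2 DMSO and 8.32, 8.82 and 8.79 with DEX, a change of 1.61 ± 0.25 (SE, limma adjusted p = 0.000426), with no overlap. AT5G38020 went from 6.97, 6.76 and 7.06 to 7.93, 8.22 and 8.46 there, a change of 1.27 ± 0.26 (SE, limma adjusted p = 0.0045). In the PEAR1 line these genes changed by -0.10 ± 0.25 and -0.15 ± 0.26, with limma adjusted p of 0.918 and 0.873. ChiC rose by 0.87 ± 0.19 in the PEAR2 line (limma adjusted p = 0.00705), and leaving out DMSO replicate 1 ended that call (limma adjusted p = 0.0508). AT1G55390 and AT2G39400 fell by 1.30 ± 0.28 and by 0.96 ± 0.18 there, and AT4G37850 fell by 0.90 ± 0.20, the last call being lost without DMSO replicate 3 (limma adjusted p = 0.0515). The other 8 changed by -0.89 to 1.27, and each of these calls was lost without at least 1 of the 6 arrays, with a limma adjusted p of up to 0.268. In the PEAR1 line AT5G58787 rose by 0.71 ± 0.14 (SE, limma adjusted p = 0.00551) and kept its call with each array left out, though not in the fit on the 6 arrays alone (limma adjusted p = 0.0663). AT2G23540, AT5G62420, AT2G03200 and AT4G24050 changed by -0.89, -0.65, -0.72 and 0.55 there, and each call was lost without at least 2 of the 6 arrays, with a limma adjusted p of up to 0.168. Of the 29 members called in either line, 12 were among the 98 stepwise members and 17 among the other 61. The classes use the same DMSO arrays as these calls, and the stepwise members had a median DMSO level of 2.97, with little room to fall. The split is a description and was not tested.

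The test of a line difference in the DEX response called 1 member lower in the PEAR1 line (background 0.08%) and none higher (background 0.0286%). At an unadjusted p under 0.05 there were 26 members, and 10.1% of all rows. The 1 called was JAL22. Its DMSO arrays read 6.46, 6.71 and 5.96 for the PEAR1 line and 6.12, 6.58 and 6.33 for the PEAR2 line, and its DEX arrays 5.40, 5.71 and 5.54 and 6.90, 7.37 and 7.33. DEX arrays thus lay below DMSO in the PEAR1 line and above it in the PEAR2 line, with changes of -0.83 ± 0.21 and 0.85 ± 0.21 (SE, limma adjusted p = 0.028 and 0.0193). Each of these 2 calls was lost without 4 of the 6 arrays, with a limma adjusted p of up to 0.145 and 0.101. The difference, PEAR1 minus PEAR2, was -1.67 ± 0.29 (SE, limma adjusted p = 0.0189). It was no longer called without 5 of the 12 arrays, with a highest limma adjusted p of 0.0652 without PEAR1 DMSO replicate 1, nor in the fit on the 12 arrays alone, at 0.221. OSM34 showed changes of -0.93 ± 0.37 and 0.38 ± 0.37 in the same directions, with limma adjusted p of 0.233 and 0.719, neither called.

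Compared between the lines in DMSO, 1 member was lower in the PEAR1 line (background 0.103%) and none higher (background 0.0857%). At an unadjusted p under 0.05 (limma) there were 22 of 159 members, and 9.83% of all rows that name a gene. AT1G65570 read 7.71, 8.00 and 7.67 for the PEAR1 line and 8.56, 8.74 and 8.75 for the PEAR2 line, a difference of -0.89 ± 0.17 (SE, limma adjusted p = 0.0272). Leaving out any of 5 of the 6 arrays ended this call, with a limma adjusted p of up to 0.119.

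Compared in DEX, 10 members were lower in the PEAR1 line (6.29%, against 0.526% of rows) and none higher (background 0.206%). At an unadjusted p under 0.05 (limma) there were 33 members, and 11% of all rows that name a gene. The largest difference was that of AT4G23680, which read 5.05, 6.17 and 5.83 for the PEAR1 line and 7.80, 7.80 and 7.90 for the PEAR2 line, -2.15 ± 0.33 (SE, limma adjusted p = 0.00256). AT1G14120 differed by -1.86 ± 0.30, AT5G38020 by -1.82 ± 0.26, JAL22 by -1.64 ± 0.21 and AT2G23540 by -1.40 ± 0.22, and all 5 kept the call with each array left out. AT5G38020 and JAL22 also kept it under each other setting tried. AT1G14120 lost it in the fit on the 6 arrays alone (limma adjusted p = 0.0735). AT4G23680 and AT2G23540 lost it only with a block for the replicate number within a line, which cannot compare the lines within a treatment. The other 5, named after their values were seen, were AT2G47200, AT5G14650, AT5G36130, AT5G47980 and AT2G03200, with differences of -1.35 to -1.06, and each lost the call without at least 1 of the 6 arrays, with a limma adjusted p of up to 0.165. Of the 10, 7 belonged to the class of 11 members in which DEX+CHX lay below DMSO and DMSO+CHX overlapped it, and none to the stepwise class of 98. AT4G23680 in that class read 6.54, 6.75 and 5.96 in PEAR1 DMSO, against 5.39, 5.89, 5.41 and 4.81 with DEX+CHX and 7.08, 6.18 and 6.39 with DMSO+CHX. The line difference of the DEX response itself was called for JAL22 alone among the 10.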

How the data were processed

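Root RNA was made into biotin-labelled target with a whole-transcript assay for 1-colour Affymetrix arrays, per the labels' protocols. The deposited values are log2 intensities that the authors made with RMA, per the submitters' processing notes; neither the RMA version nor the genome build of the array is given in the sources used here. Coordinates are therefore left out. Precision is limited by the number of arrays. The table has 38408 rows and 25 arrays, and 17504 rows name a gene in the platform annotation (16746 name 1 gene, 758 several). Names were updated through the RefSeq table of TAIR10.1. Without detection calls, low values are not called absent.

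limma 3.58.1 in R 4.3.3 was fitted to all arrays with 1 mean per group, and p was adjusted over the 17504 rows at 0.05. Only comparisons of arrays without CHX were tested. Alternatives were a fit on the groups compared, a trend with a robust prior, no lowest 33.3% of rows, quantile normalization once more, a common 75th percentile, array weights, a replicate block, all rows, and each array left out. In simulated data, 31.3%, 88.1% and 100% of changes of 0.5, 1 and 2 (log2) were called for the PEAR1 line, and 20.9%, 86.6% and 100% for the PEAR2 line, with 7 and 8 false calls, among 200 changed rows of 17504.

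Members and lists were chosen with earlier results of these data known. Named genes were the 12 with the largest mean difference, the 8 highest, up to 8 called in each direction and line and 5 in each line comparison, the 3 just inside and outside the threshold, the 6 largest and 6 smallest rises of DEX+CHX over DMSO, and members of families with at least 3 members. The 26 families were looked for in symbols and synonyms only, so a gene known by locus tag alone could be missed. Some families, such as immune receptors and receptor-like kinases, matched no row at all. By that search 1 family had 3 members, BHLH92 was the 1 member among 9 bHLH rows and ChiC the 1 member among 45 glycosyl hydrolase rows. The words also missed SLY2 as an F-box gene and XTH33 as a hydrolase, so these counts are not full family counts. Genes with a symbol, and the last 5 of the line comparison in DEX, were added after their values were seen. Plots used matplotlib 3.10.9 (Python 3.11.15).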

Additional observations from a re-analysis of the deposited data

Results flagged for a closer look

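In the PEAR1 DEX+CHX group, the only one with 4 arrays, 7 of 69 members looked at had an array far from the other 3. Among independent genes about 1 in 20 would pass the same limit by chance. The rule used these arrays and the members share them, so the count is a description and was not tested against that rate. Replicate 2 was high for AT2G03230 (5.05, the others 3.54 to 3.75), AT2G21640 (6.68, the others 5.19 to 5.41) and AT5G24640 (8.57, the others 7.81 to 7.88). Replicate 4 was low for ChiC (8.65, the others 9.27 to 9.35), AT5G36130 (7.18, the others 7.89 to 7.93) and CTF2B (5.83, the others 6.63 to 6.78), and high for AT1G76620 (5.02, the others 4.38 to 4.42). JAL22 is listed because its DEX response differed between the lines by -1.67 (PEAR1 minus PEAR2) in the test of that difference.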

How the results depend on the processing

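The rule found 78 genes at a threshold of -0.75, 41 at -1 and 241 with overlapping arrays allowed, against 159, and 151 to 226 with 1 array left out. The 6 arrays of a comparison fitted alone called 3 members with DEX in the PEAR1 line (15 in the fit to all arrays; 122 against 538 over all rows) and 12 in the PEAR2 line (24; 166 against 717), and 0 for the line difference and 0 for the lines in DMSO. With 1 array left out the counts were 7 to 10, 15 to 20, 0 to 3, 0 to 2 and, for the lines in DEX (10), 5 to 9. For the line difference (1), array weights gave 0, quantile normalization 2, trend and robust prior 4 and no lowest 33.3% of rows 3; for the lines in DMSO (1) these were 0, 1, 2 and 2. The cause of these shifts was not tested, beyond the smaller number of arrays. Counts of calls over all rows are given in this section only for DEX in the fit on the groups compared. The other shifts in member counts, those with the replicate block among them, are therefore not read as particular to the members. PEAR2 arrays stood above PEAR1 arrays in DMSO+CHX for 35 of 95 members above the lowest 33.3% of rows, against 74 of 159, an alternative chosen after seeing the data.

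With the replicate block (the number in the titles, per line), 14 and 20 members were called with DEX, 2 for the line difference, 0 for the lines in DMSO and 3 for the lines in DEX. Between the lines in DEX, the same limit holds for AT4G23680 and AT2G23540, with limma adjusted p of 0.0697 and 0.0653 under the block. AT1G14120 had a limma adjusted p of 0.0735 in the fit on the groups compared. None of 36 same-numbered pairs correlated over 0.1 in their deviations, and 8 of 25 arrays were closest to an array of the same number. Deviations within such small groups constrain each other, and the titles give only a number. Whether the numbers pair the arrays therefore cannot be told. No result listed changed direction. Of 51 calls of named members, 14 held in every setting, the block among them, and 20 with each array left out. Of the 720 values under alternatives, the block among them, 528 kept and 192 lost the call, and 29 calls were lost in the fit on the groups compared alone.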
